A study of Homo sapiens with 7 samples.

Results

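The promoters of 10 genes that E2F transcription factors drive during the cell cycle were described in H3K4me3 ChIP-seq data: CCNE1, E2F1, MYBL2, CDC6, PCNA, RRM2, TYMS, CCNA2, CCNB1 and CDK1. A listed region was assigned to a gene when it overlapped the 3 kb on either side of the gene's start in the hg19 build, and all 10 genes had such a region. They took 11 of the 30840 listed regions. Genes and regions were matched by name and position, and signal values played no part in that match. The list of genes itself was chosen with earlier results of these data known.

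H3K4me3 is a methyl mark on lysine 4 of histone H3 that sits at active promoters, and the demethylase KDM5A takes it off. All libraries came from HCT116, a human colon cancer line, with the KDM5A gene knocked out (KDM5A-/-) and kept in G418. These cells were transfected with mutant KDM5A, with wild-type KDM5A or with an empty vector, and were fixed 24 h later. Each transfection gave 1 H3K4me3 library, and parental HCT116 cells are in none of the groups used here. The change in the mutant is not named in the labels, nor is the share of cells that took up the plasmid. With 1 library per transfection no difference below has a replicate check, no p-value is given, and each interval covers counting error only.

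E2F proteins bind the promoters of genes for entry into S phase, for DNA replication and, in part together with other factors, for mitosis. In resting cells the retinoblastoma protein and its relatives hold these promoters in check, and release of E2F allows their transcription in late G1. KDM5A was first found as a protein that binds the retinoblastoma protein, and E2F target promoters are among the places where it has been studied.

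The libraries held 9906508 reads with mutant KDM5A, 10852411 with wild-type KDM5A and 10713021 with the empty vector. Signal is given in RPM, a region's reads scaled to a common library size. The listed regions took 56.9% of the reads with mutant KDM5A, 60.7% with wild-type KDM5A and 67.0% with the empty vector. A general shift of signal towards lower RPM in regions therefore accompanied every comparison with the empty vector. It is given beside the genes' own values as the median over the 10887 regions with a mean of 20 RPM or more, here called strong regions. The ratio of RPM had a median over the strong regions of 0.901 for wild-type KDM5A to empty vector, 0.843 for mutant KDM5A to empty vector and 0.937 for mutant to wild-type KDM5A. With library totals as the scale, less mark everywhere and a less specific precipitation give the same RPM and cannot be told apart.

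The region at each of the 10 starts had more than 20 RPM in every library. Averaged over the 3 libraries, the signal ran from 30.3 RPM at MYBL2 to 93.1 RPM at RRM2, above 70.4% and 98.7% of all listed regions. Of the strong regions alone, 16.2% were weaker than MYBL2 and 96.2% weaker than RRM2. In 9 genes a single region lay in the window. CDC6 had a second, weak region far upstream, of which 299 bp reached into the window, with 3.03 RPM for mutant KDM5A, 2.76 RPM for wild-type KDM5A and 3.92 RPM for the empty vector. The region at the start of CDC6 lay mostly downstream of the given start, from −0.044 to 1.80 kb. By contrast the region at RRM2 was the widest, 4889 bp, and reached 3.28 kb upstream. Those of MYBL2 (2039 bp), CCNB1 (1935 bp) and CDC6 (1840 bp) were the narrowest. The given starts are rounded to 1 kb, so these distances carry that error.

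**Figure D1:**
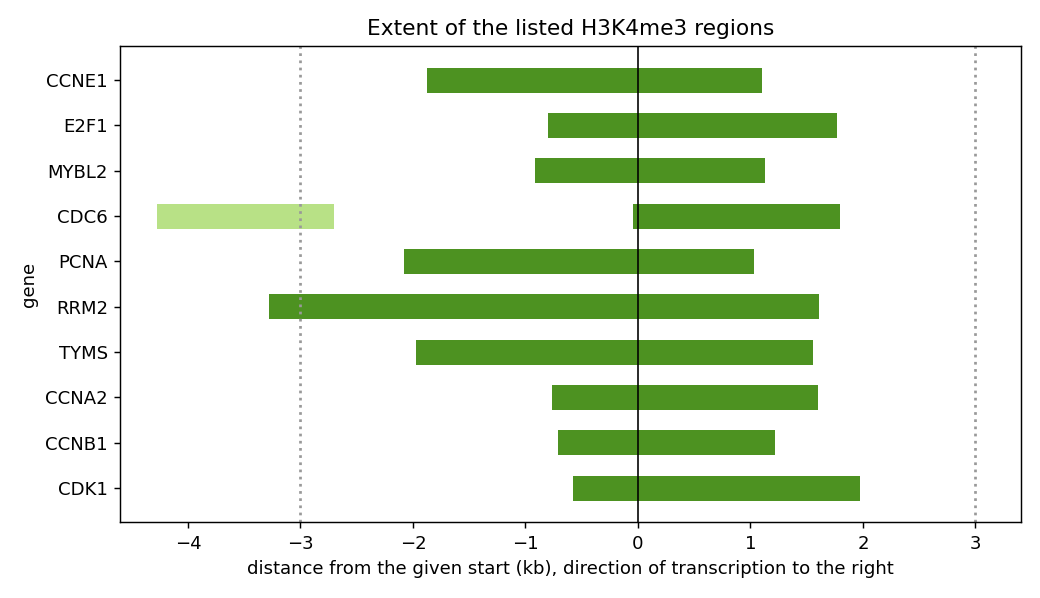
Extent of the listed H3K4me3 regions around the start of each gene, in kb, drawn so that transcription runs to the right. Dark bars are the 10 regions at a start, the light bar is the weak upstream region of CDC6, and dotted lines mark the 3 kb window. The region at RRM2 reaches 3.28 kb upstream and that at CDC6 0.044 kb, both measured from starts rounded to 1 kb.

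The RefSeq promoter windows, 250 bases before to 50 after a start, are shown for 5 of the genes. CCNB1 and CCNA2 were lowest with mutant KDM5A relative to the empty vector, and MYBL2 and PCNA had the highest ratios. CDC6 had the most signal per length in the region at its start, though not with its upstream region included. PCNA has a pair of starts in RefSeq and is shown at each. Their positions are in the GRCh38.p14 build, unlike the hg19 positions of the regions. Capitals mark matches on either strand to the E2F core, to the CHR core, an element of late cell cycle genes, and to the motif of NF-Y. The E2F core was searched in the form TTCCCGC, in the further forms with other middle letters, which are TTCGCGC and the one written TTGCCGC as well as the one written TTGGCGC, and in a last form that was added after the sequences were seen, TTGGCGG. The CHR core was searched as TTTGAA and the motif of NF-Y as CCAAT. Where matches overlap, as at CCNB1, the capitals run together.
CCNB1, chr5:69166900-69167199 (+ strand): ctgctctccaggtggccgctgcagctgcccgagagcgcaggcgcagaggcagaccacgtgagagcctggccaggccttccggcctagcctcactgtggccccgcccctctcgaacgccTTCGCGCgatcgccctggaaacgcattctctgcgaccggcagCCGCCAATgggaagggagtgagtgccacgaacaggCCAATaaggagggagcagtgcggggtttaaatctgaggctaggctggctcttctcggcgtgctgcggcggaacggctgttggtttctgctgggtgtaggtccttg
CCNA2, chr4:121823834-121824133 (- strand): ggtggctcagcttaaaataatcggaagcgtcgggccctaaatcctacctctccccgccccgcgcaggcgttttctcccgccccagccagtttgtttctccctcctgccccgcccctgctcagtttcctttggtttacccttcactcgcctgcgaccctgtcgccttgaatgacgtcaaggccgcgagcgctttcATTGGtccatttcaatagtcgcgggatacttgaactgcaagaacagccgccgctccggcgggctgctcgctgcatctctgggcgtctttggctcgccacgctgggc
CDC6, chr17:40287629-40287928 (+ strand): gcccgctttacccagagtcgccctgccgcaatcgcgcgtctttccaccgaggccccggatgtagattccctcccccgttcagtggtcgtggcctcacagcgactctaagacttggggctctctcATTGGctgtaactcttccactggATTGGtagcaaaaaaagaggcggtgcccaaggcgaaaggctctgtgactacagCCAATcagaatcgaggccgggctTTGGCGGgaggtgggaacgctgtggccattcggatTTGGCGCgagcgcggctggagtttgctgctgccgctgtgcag
MYBL2, chr20:43666864-43667163 (+ strand): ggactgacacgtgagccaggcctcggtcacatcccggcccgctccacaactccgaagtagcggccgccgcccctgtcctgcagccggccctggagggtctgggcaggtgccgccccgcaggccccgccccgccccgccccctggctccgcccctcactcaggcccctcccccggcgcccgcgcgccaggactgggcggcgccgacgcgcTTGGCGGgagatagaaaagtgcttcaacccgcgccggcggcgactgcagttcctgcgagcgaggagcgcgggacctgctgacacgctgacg
PCNA, upstream start, chr20:5126573-5126872 (- strand): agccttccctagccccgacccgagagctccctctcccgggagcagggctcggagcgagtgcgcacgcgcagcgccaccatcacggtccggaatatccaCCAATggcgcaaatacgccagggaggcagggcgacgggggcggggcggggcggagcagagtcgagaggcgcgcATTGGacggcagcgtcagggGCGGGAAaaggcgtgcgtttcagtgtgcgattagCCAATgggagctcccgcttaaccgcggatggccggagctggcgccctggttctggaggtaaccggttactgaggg
PCNA, downstream start, chr20:5119909-5120208 (- strand): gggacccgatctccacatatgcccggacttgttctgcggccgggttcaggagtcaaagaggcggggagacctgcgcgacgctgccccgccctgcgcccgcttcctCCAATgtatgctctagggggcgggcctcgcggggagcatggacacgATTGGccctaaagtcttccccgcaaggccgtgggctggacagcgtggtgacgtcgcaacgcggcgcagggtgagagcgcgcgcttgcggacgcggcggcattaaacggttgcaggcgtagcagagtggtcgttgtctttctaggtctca

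An E2F core in its first 4 forms was found in 7 of the 10 genes, against 12.97% of all 35116 promoter windows in the table. With TTGGCGG added it was found in 8 genes, MYBL2 being the further one, against 15.7% of windows. That form was chosen after the sequences were seen, so the count of 8 is not independent of the choice. CCAAT was present in 7 genes, against 34.6% of windows. TTTGAA was found in 1 gene, CDK1, against 15.2% of windows. Genes with several starts had more than 1 chance to match: the 10 genes had 13 windows. These are letter matches and not binding sites. CCNE1 and CCNA2 had no match to any form of the E2F core in these windows, and CCNE1 had none to CCAAT.

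Among the regulators of entry into S phase, CCNE1 encodes cyclin E1, the partner of CDK2. Its region on chromosome 19 (hg19, 30301121 to 30304100) had 40.2 RPM with mutant KDM5A, 45.8 RPM with wild-type KDM5A, against 50.4 RPM with the empty vector. The ratio to the empty vector was 0.797 for mutant KDM5A (95% interval 0.698 to 0.909) and 0.909 for wild-type KDM5A (0.803 to 1.03), and the interval of the second holds 1.

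E2F1 encodes the transcription factor itself, and its promoter holds 2 E2F cores. The region on chromosome 20 (32272230 to 32274796) had 34.4 RPM with mutant KDM5A, 35.6 RPM with wild-type KDM5A, against 39.6 RPM with the empty vector. Its ratios to the empty vector, 0.870 for mutant KDM5A (0.752 to 1.005) and 0.899 for wild-type KDM5A (0.781 to 1.03), were close to the medians of the strong regions.

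MYBL2, grouped here with the regulators of S phase entry, encodes B-MYB, which works with the MuvB complex on genes of late S phase and mitosis. Its region on chromosome 20 (42295088 to 42297126) had 27.1 RPM with mutant KDM5A, 32.99 RPM with wild-type KDM5A, against 30.99 RPM with the empty vector. It was the highest of the list in the ratio of wild-type KDM5A to empty vector, 1.06 (0.914 to 1.24), an interval that holds 1 but lies above the strong regions' median of 0.901. Of the strong regions, 98.1% had a lower ratio. It was also the lowest of the list in the ratio of mutant to wild-type KDM5A, 0.820 (0.697 to 0.963), where 5.93% of strong regions were lower. The 2 observations share the wild-type KDM5A library. Against the empty vector the mutant had a ratio of 0.873 (0.740 to 1.03).

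Among the genes of replication licensing and DNA synthesis, CDC6 encodes the factor that loads the MCM helicase at origins. Its regions (chromosome 17, 38443956 to 38445795 at the start and 38439727 to 38441299 upstream) summed to 40.6 RPM with mutant KDM5A, 40.2 RPM with wild-type KDM5A, against 49.6 RPM with the empty vector. The ratios to the empty vector were 0.819 (0.717 to 0.934) for the mutant and 0.811 (0.712 to 0.922) for wild-type KDM5A. Between the mutant and wild-type KDM5A the ratio was 1.01 (0.880 to 1.16). Nearly all of this lay in the region at the start, with 37.6 RPM for the mutant, 37.4 RPM for wild-type KDM5A and 45.6 RPM for the empty vector.

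RRM2, the small subunit of ribonucleotide reductase that supplies deoxyribonucleotides, had the most signal of the list. Its region on chromosome 2 (10259718 to 10264606) had 85.6 RPM with mutant KDM5A, 85.9 RPM with wild-type KDM5A, against 107.8 RPM with the empty vector. The ratios to the empty vector were 0.794 (0.726 to 0.868) for mutant KDM5A and 0.797 (0.730 to 0.869) for wild-type KDM5A, the best counted of the list since they rest on 848, 932 and 1155 reads. The wild-type interval lies below the median of the strong regions, while the mutant interval holds its own median of 0.843. The mutant over wild-type KDM5A stood at 0.997 (0.907 to 1.10).

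TYMS encodes thymidylate synthase, which makes thymidylate for DNA. The region on chromosome 18 (656030 to 659554) had 66.8 RPM with mutant KDM5A, 69.7 RPM with wild-type KDM5A, against 79.7 RPM with the empty vector. Its ratios to the empty vector were 0.838 (0.756 to 0.929) for mutant KDM5A and 0.874 (0.791 to 0.965) for wild-type KDM5A. The start of the noncoding gene TYMSOS lies 0.640 kb from that of TYMS on the other strand in RefSeq, so the region cannot be assigned to TYMS alone.

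PCNA encodes the sliding clamp of DNA polymerase. The region at the given start (chromosome 20, 5105973 to 5109079) had 52.9 RPM with mutant KDM5A, 56.3 RPM with wild-type KDM5A, against 55.6 RPM with the empty vector. This was the least change of the list against the empty vector, with ratios of 0.951 (0.844 to 1.07) for mutant KDM5A and 1.01 (0.903 to 1.14) for wild-type KDM5A. Both intervals hold 1 and lie above the medians of the strong regions. In RefSeq this start is 0.384 kb from that of CDS2, a gene on the other strand, and the region cannot be assigned to PCNA alone.

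RefSeq gives PCNA a further start 6.66 kb downstream of the given one, outside the 3 kb window. A strong region centred 6.73 kb downstream (5098747 to 5101791) had 47.7 RPM with mutant KDM5A, 47.5 RPM with wild-type KDM5A, against 60.6 RPM with the empty vector. There the ratios to the empty vector were 0.788 (0.699 to 0.889) for mutant KDM5A and 0.785 (0.698 to 0.882) for wild-type KDM5A. The choice of start therefore changes the value given for PCNA. In RefSeq the start of PCNA-AS1 lies 0.374 kb from this further start on the other strand. The region there cannot be assigned to PCNA alone either. This region was looked at after the values at the given start were seen. It begins 2.21 kb beyond the window and is the listed region nearest to a window without touching it.

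Among the cyclins and the kinase that act from S phase to mitosis, CCNA2 encodes cyclin A2, the partner of CDK2 and CDK1. Its region on chromosome 4 (122743397 to 122745764) had 39.8 RPM with mutant KDM5A, 45.4 RPM with wild-type KDM5A, against 55.8 RPM with the empty vector. The ratio of mutant KDM5A to empty vector was 0.713 (0.626 to 0.810), below the median of the strong regions, and 2.57% of strong regions were lower. For wild-type KDM5A it was 0.814 (0.721 to 0.918). Mutant over wild-type KDM5A gave 0.875 (0.765 to 1.002), an interval that reaches just past 1.

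CCNB1 encodes cyclin B1, which activates CDK1 at the entry into mitosis. Its region on chromosome 5 (68462288 to 68464222) had 31.9 RPM with mutant KDM5A (316 reads), 34.7 RPM with wild-type KDM5A (377 reads) and 47.6 RPM with the empty vector (510 reads). It had the lowest ratio to the empty vector of the list under both forms, 0.670 (0.580 to 0.773) for mutant KDM5A and 0.730 (0.637 to 0.835) for wild-type KDM5A. Each interval lies below the median of the strong regions. Lower ratios were held by 62 of the 10887 strong regions for mutant KDM5A and by 61 for wild-type KDM5A. These comparisons share the empty vector library, so 1 high value there would lower both. Between mutant and wild-type KDM5A the ratio was 0.918 (0.788 to 1.07).

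CDK1 is the kinase that drives mitosis. Its region on chromosome 10 (62537426 to 62539971) had 37.2 RPM with mutant KDM5A, 38.4 RPM with wild-type KDM5A, against 42.8 RPM with the empty vector. The ratios to the empty vector were 0.871 (0.758 to 1.002) and 0.899 (0.785 to 1.03) for mutant and wild-type KDM5A, near the medians of the strong regions. Its cyclin partners CCNA2 and CCNB1 had ratios of 0.713 and 0.670 for the mutant, and their intervals overlap with that of CDK1.

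**Figure D2:**
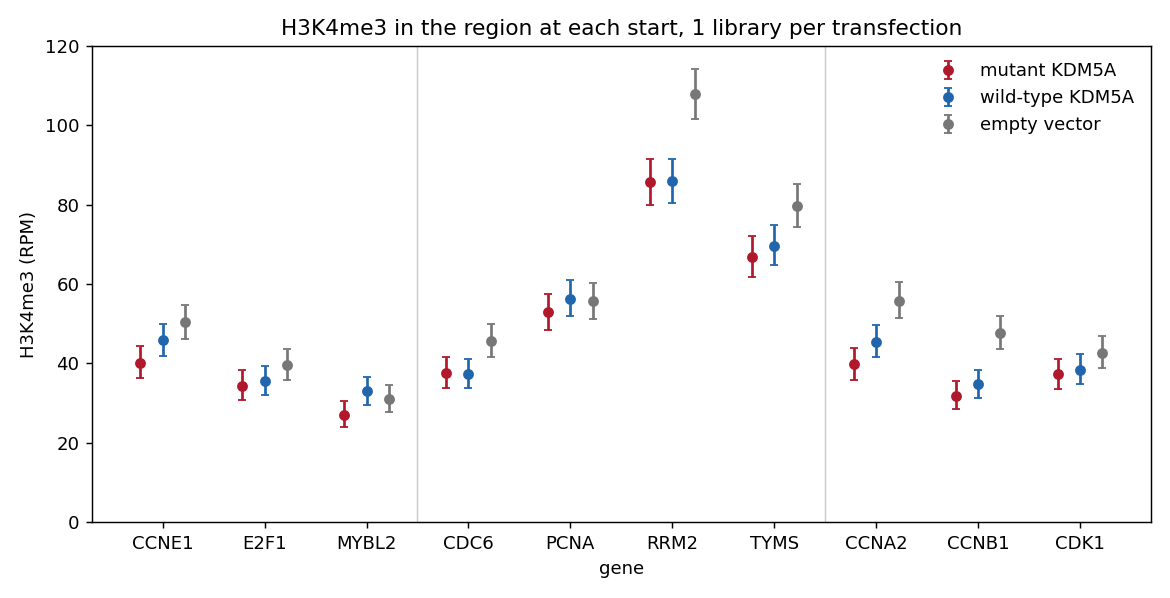
H3K4me3 in RPM in the region at the start of each gene for mutant KDM5A, wild-type KDM5A and the empty vector, with exact 95% Poisson intervals for counting error. Grey lines divide regulators of S phase entry (with MYBL2), genes of licensing and DNA synthesis, and the cyclins and kinase of S phase to mitosis. RRM2 is highest in every library, and CCNB1 shows 31.9 and 34.7 RPM with mutant and wild-type KDM5A against 47.6 RPM with the empty vector.

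Knockout cells transfected with wild-type KDM5A were compared with those given the empty vector. On the scale of log2(RPM + 0.7), 0 of 10 genes were at least 1.5-fold lower than with the empty vector and 0 were higher. Of all listed regions, 6.53% were lower and 6.23% higher by this rule, most of them weak. Among strong regions the shares were 0.0459% in each direction, so the count of 0 is close to that background. The median log2 ratio of the genes was −0.17, beside −0.11 for all regions and −0.15 for strong regions. In 8 genes the ratio was below 1 (in 7 once the median ratio of the stronger regions was set to 1), as it was in 91.4% of strong regions. The interval lies below 1 in 5 genes (CDC6, RRM2, TYMS, CCNA2 and CCNB1), as it does in 40.9% of strong regions, and with each of 3 other scalings those of CDC6, TYMS and CCNA2 hold 1. Set against the median of the strong regions, RRM2 and CCNB1 have intervals below it and MYBL2 and PCNA above it, as have 4.97% and 5.05% of strong regions. Summed over the list, the signal was 484.96 RPM with wild-type KDM5A, against 559.9 RPM with the empty vector, a ratio of 0.866 (0.835 to 0.899).

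For mutant KDM5A set against the empty vector, 0 of 10 genes passed 1.5-fold in either direction, with CCNB1 closest. Among all regions 8.15% were lower and 6.61% higher, and among strong regions 0.432% and 0.0459%. The median log2 ratio of the genes was −0.27, beside −0.18 for all regions and −0.24 for strong regions. All 10 ratios were below 1 (6 of 10 with that other scaling), and so were 98.0% of those of the strong regions. The interval lies below 1 in 6 genes, the 5 above and CCNE1, as it does in 69.0% of strong regions. With each of the 3 other scalings the intervals of CCNE1, CDC6, RRM2 and TYMS hold 1. CCNA2 and CCNB1 have intervals below the median of the strong regions and PCNA above it, as have 5.64% and 5.65% of strong regions. The summed signal was 456.5 RPM with mutant KDM5A and 559.9 RPM with the empty vector, a ratio of 0.815 (0.784 to 0.848).

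The mutant was then compared with wild-type KDM5A directly, which does not use the empty vector library. No gene passed 1.5-fold (0 of 10), while 5.45% of all regions did in the lower and 5.19% in the higher direction, and 0 of the 10887 strong regions (0.00%). The median log2 ratio was −0.074, beside −0.077 for all regions and −0.093 for strong regions. The ratio was below 1 in 9 genes (4 with that other scaling), CDC6 being the exception, and in 79.6% of strong regions. The interval lies below 1 for MYBL2 alone, where it holds 1 with each of the 3 other scalings, and in 20.7% of strong regions. All 10 intervals hold the median of the strong regions, while 5.25% of strong regions have theirs below it and 4.76% above. Over the list the ratio was 0.941 (0.904 to 0.980).

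**Figure D3:**
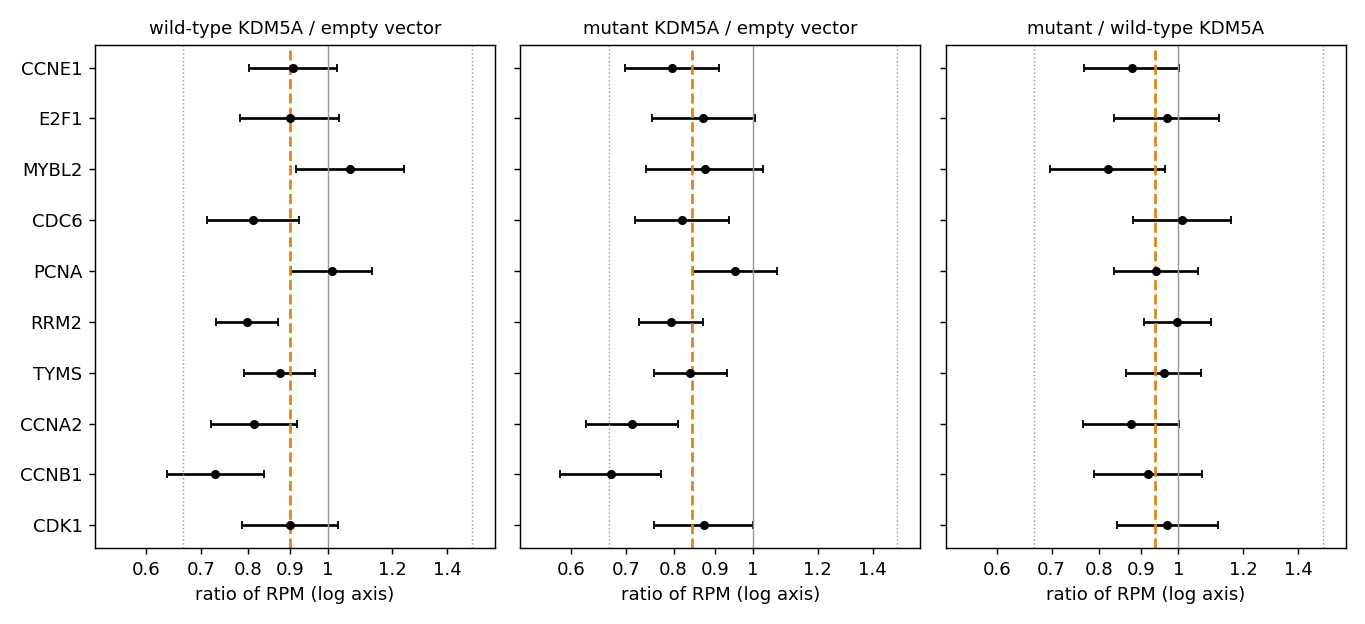
Ratio of RPM on a log axis for the 10 genes in the 3 comparisons, with exact 95% intervals for counting error. The dashed line is the median ratio of the 10887 strong regions, the solid line is 1 and the dotted lines mark 1.5-fold. CCNB1 lies lowest against the empty vector, at 0.670 with the mutant and 0.730 with wild-type KDM5A, and every interval in the third panel holds the dashed line.

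By role, the S phase to mitosis genes had the lowest summed ratios to the empty vector. Together CCNA2, CCNB1 and CDK1 had 108.9 RPM with mutant KDM5A, 118.6 RPM with wild-type KDM5A, against 146.2 RPM with the empty vector. The ratios to the empty vector were 0.745 (0.689 to 0.806) for mutant KDM5A and 0.811 (0.753 to 0.874) for wild-type KDM5A. Within this group CDK1 had 0.871 and 0.899, against 0.713 and 0.814 at CCNA2 and 0.670 and 0.730 at CCNB1. The 4 genes of licensing and DNA synthesis had ratios of 0.840 (0.796 to 0.886) and 0.861 (0.818 to 0.907) in the same order. That sum takes PCNA at its given start. At its other start PCNA had 0.788 and 0.785, and the group's sum with that start was not computed, so the order of the groups may depend on it. The 3 genes grouped as regulators of S phase entry, MYBL2 among them, had 0.840 (0.773 to 0.913) and 0.945 (0.874 to 1.02). For wild-type KDM5A, MYBL2 had a ratio of 1.06, while CCNE1 had 0.909 and E2F1 0.899. For mutant to wild-type KDM5A the summed ratios were 0.918 (0.846 to 0.997), 0.976 (0.923 to 1.03) and 0.889 (0.817 to 0.967) for these 3 groups. Each of these intervals holds the median of the strong regions, 0.937. Against the empty vector those medians were 0.843 for mutant and 0.901 for wild-type KDM5A. Only the S phase to mitosis group had intervals below them, and those of the other groups hold them. The groups hold 3 or 4 genes each, and no test of the difference between them can be made with 1 library per transfection.

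**Figure D4:**
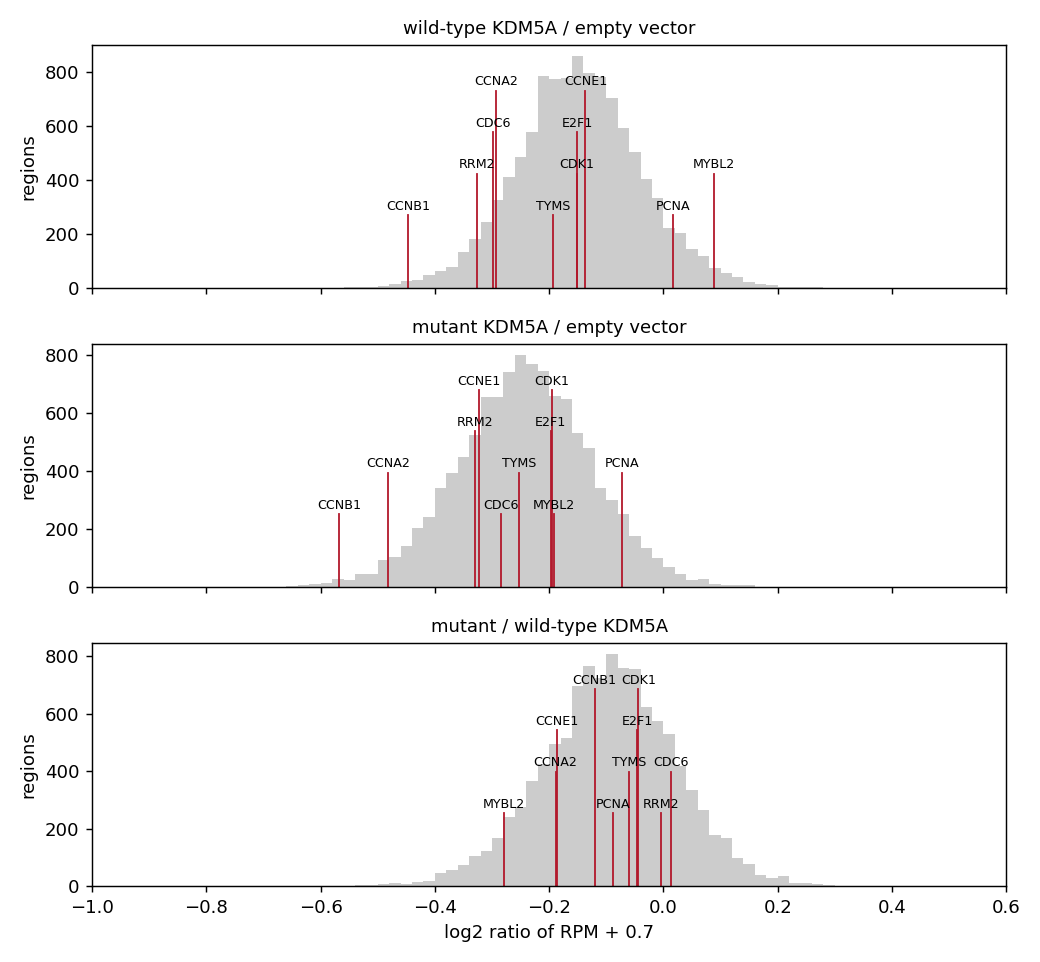
Distribution of the log2 ratio of RPM + 0.7 over the strong regions (grey, number of regions), with each gene at its own value (red). CCNB1 lies in the lower tail against the empty vector, at −0.57 with the mutant and −0.45 with wild-type KDM5A, and MYBL2 in the upper tail for wild-type KDM5A at 0.088. Regions beyond the axis are not drawn.

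Signal per length was compared over the regions at the starts, in RPM per kb. With the empty vector, 5 genes lay between 22.1 and 24.8 RPM per kb: CDC6 at 24.8, CCNB1 at 24.6, CCNA2 at 23.6, TYMS at 22.6 and RRM2 at 22.1. The other 5 followed, with PCNA at 17.9, CCNE1 at 16.9, CDK1 at 16.8, E2F1 at 15.4 and MYBL2 at 15.2. Of the 9 pairs of neighbours in this order, only RRM2 and PCNA differed beyond counting error (1.23-fold, 1.11 to 1.36). With mutant KDM5A the order ran from CDC6 at 20.4 RPM per kb to MYBL2 at 13.3, and with wild-type KDM5A from CDC6 at 20.3 to E2F1 at 13.9. In these libraries none of the 9 pairs of neighbours differed beyond counting error. Neighbours are the closest pairs, and genes further apart did differ. With mutant KDM5A the interval of CDC6 (18.4 to 22.6) lies apart from that of MYBL2 (11.7 to 15.0). With wild-type KDM5A that of CDC6 (18.4 to 22.4) lies apart from that of E2F1 (12.5 to 15.3). CCNB1 and CCNA2 stood at 16.5 and 16.8 RPM per kb with mutant KDM5A and at 17.95 and 19.2 with wild-type KDM5A, between genes that they exceeded with the empty vector.

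A share of the list's own reads does not depend on how libraries are scaled. CCNB1 took 6.99% of the list's reads with mutant KDM5A (Wilson 95% interval 6.28% to 7.77%), 7.16% with wild-type KDM5A (6.50% to 7.89%) and 8.50% with the empty vector (7.82% to 9.24%). Its mutant and empty vector intervals do not overlap, while the wild-type and empty vector ones do. MYBL2 took 5.93%, 6.80% and 5.54%, and PCNA at the given start 11.6%, 11.6% and 9.94%, in the same order of libraries. For both genes the wild-type and empty vector intervals do not overlap. In the other 7 genes neither form of KDM5A had an interval apart from that of the empty vector. The share of strong regions with intervals apart by this rule was not computed, so these counts have no background beside them. Nor was the share computed for PCNA at its other start, where its wild-type KDM5A ratio to the empty vector was 0.785.

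Each gene was also set beside the nearest strong region outside its window, 5.21 to 52.9 kb from the start, on the same chromosome. For PCNA that neighbour is the region at its other start, so that case compares starts of the same gene. At CCNB1 the neighbour had 44.3 RPM with mutant KDM5A, 47.4 RPM with wild-type KDM5A, against 57.6 RPM with the empty vector. Its ratios to the empty vector, 0.769 (0.679 to 0.871) and 0.822 (0.730 to 0.926), overlap in their intervals with those of CCNB1. At MYBL2 the neighbour had ratios of 0.812 (0.718 to 0.918) for mutant KDM5A and 0.827 (0.734 to 0.932) for wild-type KDM5A, where MYBL2 had 0.873 and 1.06. The wild-type KDM5A intervals of MYBL2 and its neighbour overlap only between 0.914 and 0.932. Without PCNA, the gene had a lower ratio to the empty vector than its neighbour in 6 of 9 cases for mutant KDM5A. For wild-type KDM5A to empty vector this was so in 8 of 9, and for mutant to wild-type KDM5A in 3 of 9. With PCNA the counts were 6, 8 and 4 of 10 in the same order. How often any strong region is lower than its nearest strong region was not computed, so these counts have no background beside them.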

How the data were processed

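H3K4me3 ChIP-seq was done on formaldehyde-fixed, sonicated chromatin, per the labels' protocols. Per the submitters' processing notes, tools included deepTools 3.5.6, HOMER, MACS, MACS2 and Bowtie2 2.5.4, on hg19. Peak calling, treatment of duplicates and read counting: not given in the sources used here. A single deposited table gives the RPM of 3 H3K4me3 libraries over 30840 regions, as computed by the authors. The empty vector column's header names H3K4me4, read as a slip for H3K4me3. The 3 input libraries and the IgG library were not analysed here.

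RPM values were whole multiples of 1 step per library (100% within 0.02 reads), which gave reads and library totals. RPM was summed over each gene's regions. Ratios are plain RPM ratios with exact conditional (Clopper-Pearson) 95% intervals, and shares have Wilson intervals. Reads are not independent molecules where PCR copied them. Counts past 1.5-fold and medians use log2(RPM + 0.7), which understates changes of weak regions. All 10 given genes are named. The genes, lists, the 20 RPM limit and the tests were chosen with earlier results of these data known. The further E2F target genes listed beforehand were not placed, since the RefSeq tables used here (GRCh38.p14) are on another build. All 10 genes matched the RefSeq promoter table, which also gave strand and names of neighbours. The ratios and intervals were tried on simulated Poisson counts. Those hold no duplicated reads and no variation between libraries, so neither was tested. The work was done in Python 3.11.15 with scipy 1.17.1, numpy 2.4.6, statsmodels 0.14.6, pandas 2.3.3 and matplotlib 3.10.9.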

Additional observations from a re-analysis of the deposited data

How the results depend on the processing

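The alternatives were pseudocounts of 0.07 and 3.5 RPM, 3 other scalings, windows of 1 and 5 kb, the strongest region of each window, a filter at the median of the regions' mean RPM, a 2-fold threshold and, added after seeing the data, PCNA at its other start. In each of them 0 of 10 genes passed the threshold in any comparison. For the 2-fold threshold this follows from the main result and is not a separate check. The medians of the log2 ratio depend on scaling by library totals. With the median ratio of the stronger regions set to 1, which moved the median of all regions by 0.13 (wild-type KDM5A to empty vector), 0.22 (mutant to empty vector) and 0.086 (mutant to wild-type), the genes' medians became −0.029, −0.032 and 0.019, the last with its sign turned. With equal sums over the listed regions they were −0.031, −0.036 and 0.017, and with a lowess trend on level removed −0.023, −0.026 and 0.016. Under each of these 3 scalings the intervals of CCNB1 and RRM2 for wild-type KDM5A and of CCNA2 and CCNB1 for mutant KDM5A still lay below 1. MYBL2 lay above 1 for wild-type KDM5A, at log2 ratios of 0.23 under each, and its interval for mutant to wild-type KDM5A came to hold 1. The intervals of CDC6, TYMS and CCNA2 for wild-type KDM5A, and of CCNE1, CDC6, RRM2 and TYMS for mutant KDM5A, also came to hold 1. PCNA for wild-type KDM5A lay above 1 with the trend removed. At its other start PCNA had log2 ratios of −0.34 for both forms of KDM5A, and the genes' median for wild-type KDM5A became −0.24. The shares of library reads stayed within their counting intervals under the other windows and region choices. No paired analysis was possible because each transfection had 1 H3K4me3 library, and no library could be left out for the same reason. Depth limits single genes, whose reads ran from 268 (MYBL2, mutant KDM5A) to 1155 (RRM2, empty vector) per library.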
